A study of Homo sapiens with 12 samples.

Results

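The HOX cluster genes examined here were the 38 protein-coding genes of the expression table whose symbol is HOXA, HOXB, HOXC or HOXD followed by a number, out of 17665 protein-coding genes and 32152 genes of all types. HOXA gave 11 of them, and HOXB, HOXC and HOXD gave 9 each. RNA was sequenced in 12 libraries from 2 human lines of triple-negative breast cancer, MDA-MB-231 as well as Hs-578T, grown to about 70% confluence. Each line was sequenced as parental control, as ERK5-ko and as MEK5DD, with 2 libraries per group taken at consecutive passages. ERK5-ko cells had the MAPK7 gene, which encodes the kinase ERK5, targeted with CRISPR-Cas9 guides and were then grown from single cells. MEK5DD denotes MEK5, the activator of ERK5, in a permanently switched-on form, and how the cells that carry it were made is not given in the sources used here. The MDA-MB-231 ERK5-ko cells descend from 1 surviving clone, and which Hs-578T clone was sequenced is not given in the sources used here, so an effect of ERK5 loss and a property of a clone cannot be told apart. Parental MDA-MB-231 cells were at passages 29 and 30 and parental Hs-578T cells at 83 and 84, whereas the derived cells were at passages 7 to 11, so passage and genotype cannot be told apart either. Since the 2 libraries of a group were neighbouring passages of one culture, the p-values measure the spread between such libraries.

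The values were RPKM, reads scaled to the length of the gene model and to the size of the library, and the libraries held 20248162 to 27791195 reads. MAPK7 was at 13.3 to 18.1 RPKM in all 12 libraries and did not fall in the libraries labelled ERK5-ko (log2 fold change 0.29 in MDA-MB-231, adjusted p = 0.0709 by limma, and 0.26 in Hs-578T, adjusted p = 0.0624), so the RNA level of the target gene did not check that label. By Western blot, the paper reports ERK5 protein far below parental levels in the ERK5-ko cells of both lines. MAP2K5, which encodes MEK5, was at 12.9 and 13.6 RPKM in parental MDA-MB-231 libraries against 188 and 184 in their MEK5DD libraries, and at 14.6 and 16.9 against 21.3 and 23.8 in Hs-578T. The mesenchymal marker VIM was at 1598 to 4067 RPKM, and ESR1 and PGR did not exceed 0.348. ERBB2 was read in all 12 libraries, at 27.8 to 56.8. Of the leukocyte markers CD3E did not exceed 0.0247 and PTPRC reached 0.396 in Hs-578T, and of the endothelial markers CDH5 did not exceed 0.0259 and VWF 0.214, whereas PECAM1 was at 2.81 to 6.48 in Hs-578T and 0.194 to 0.841 in MDA-MB-231. Of the epithelial markers EPCAM was at 7.08 to 25.7 in MDA-MB-231 and did not exceed 0.0862 in Hs-578T. KRT8 was at 595 to 1146 against 27.9 to 71.0, whereas KRT18 overlapped, at 328 to 692 against 141 to 596. FOXA1 was higher in Hs-578T, at 0.845 to 1.85 against at most 0.0638. CDH1 did not exceed 0.650 in MDA-MB-231 but reached 1.16 in a Hs-578T ERK5-ko library. GATA3 was at 3.77 to 9.34 in all 12 libraries.

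HOX genes encode transcription factors that bind DNA through a homeodomain and give cells of the embryo their position along the head-to-tail axis. They lie in 4 clusters on different chromosomes, and genes with the same number in different clusters are paralogs that descend from one ancestral gene. Genes with low numbers are used towards the head and genes with high numbers towards the tail and the ends of the limbs, and adult cells, cultured cells and tumours often keep a set of active HOX genes that reflects where in the body they came from. Inactive clusters are typically held silent by Polycomb repression, active ones are maintained by Trithorax-type methyltransferases, and retinoic acid is a classical inducer of the low-numbered genes. In mammary tissue HOX genes take part in the branching and differentiation of the gland.

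The homeobox, the stretch of 180 bases that encodes the homeodomain, is shown for HOXA4 and HOXC4 because these paralogs encode nearly the same motif from different clusters and were both read in Hs-578T and not in MDA-MB-231 beyond traces. The sequences were read from GENCODE 29 transcripts on GRCh38 and run 5′ to 3′ on the coding strand, and capitals mark the positions at which they differ.
HOXA4 (chr7:27129366-27129545, minus strand, exon 2 of 2): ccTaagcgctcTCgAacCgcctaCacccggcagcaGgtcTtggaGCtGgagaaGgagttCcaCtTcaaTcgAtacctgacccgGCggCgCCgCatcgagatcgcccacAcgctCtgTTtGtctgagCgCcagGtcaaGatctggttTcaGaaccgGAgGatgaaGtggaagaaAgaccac
HOXC4 (chr12:54054876-54055055, plus strand, exon 4 of 4): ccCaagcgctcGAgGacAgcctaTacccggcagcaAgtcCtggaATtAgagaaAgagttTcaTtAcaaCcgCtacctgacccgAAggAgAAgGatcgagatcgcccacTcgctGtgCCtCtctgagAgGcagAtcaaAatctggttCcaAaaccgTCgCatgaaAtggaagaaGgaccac

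The HOXA4 and HOXC4 homeoboxes differed at 39 of 180 bases (78.3% identity), and 3 codons encoded a different residue. The longest run of bases shared in register was 15. In the 6 MDA-MB-231 libraries HOXA4 had 0 reads, while HOXC4 had 0 to 4.

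The bases before the start site are shown for HOXA6, which was read in every Hs-578T library and in no MDA-MB-231 library, and for HOXD3, which was read in every MDA-MB-231 library and in no Hs-578T library. Each is the 250 bases upstream of the RefSeq start on GRCh38.p14. Both windows lie inside the gene spans that the values cover, chr7:27145396-27150603 for HOXA6 and chr2:176136612-176173102 for HOXD3. Some of the measured RNA may therefore start further upstream. Capitals mark matches to the motifs named after them.
HOXA6 (chr7:27147775-27148024, minus strand): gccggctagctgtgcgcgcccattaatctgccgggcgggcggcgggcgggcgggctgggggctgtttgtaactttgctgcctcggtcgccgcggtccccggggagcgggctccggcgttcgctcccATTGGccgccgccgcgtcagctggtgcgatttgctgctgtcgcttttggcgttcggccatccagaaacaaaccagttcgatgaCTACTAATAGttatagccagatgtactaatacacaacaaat
HOXD3 (chr2:176157057-176157306, plus strand): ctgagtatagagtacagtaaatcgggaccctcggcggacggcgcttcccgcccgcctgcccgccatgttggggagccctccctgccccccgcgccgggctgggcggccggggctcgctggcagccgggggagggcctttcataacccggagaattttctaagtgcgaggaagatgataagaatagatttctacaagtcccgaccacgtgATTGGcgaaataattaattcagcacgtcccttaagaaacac

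The motifs searched on both strands were the TATA box TATAAA, the CCAAT box CCAAT, a HOX-PBX site TGATTNAT, a TALE site TGACAG, a retinoic acid receptor motif AGGTCA and the palindromic MEF2 pattern, with N for any base. Both windows held CCAAT on the opposite strand, starting 124 bases before the HOXA6 start and 41 bases before the HOXD3 start, and 32% of the 35116 promoter windows of this length held it. The HOXA6 window also held the palindromic pattern searched for MEF2, starting 41 bases before the start site, as did 2.36% of all windows. That pattern was loose, since it allowed any base at its central positions, and the HOXA6 match has a C there. MEF2 factors are known substrates of ERK5, but a match to so loose a pattern does not show a MEF2 site. The match is given as letters only, and binding was not tested. The other motifs were in neither window and in 10.7% (TATAAA), 2.48% (TGATTNAT), 13% (TGACAG) and 12.1% (AGGTCA) of all windows. GC content was 62% for HOXA6 and 59.2% for HOXD3, against a median of 58% over all windows. RefSeq windows were at hand for 19 of the 38 members, and HOXA5, HOXB5, HOXB9 and HOXC10 were among the other 19.

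The 2 parental lines expressed different HOX clusters. Summed over its members, HOXA was at 0.563 RPKM in parental MDA-MB-231 and 52.9 in parental Hs-578T, and HOXC was at 0.509 against 81.0. HOXB was expressed in both lines, at 9.07 against 43.0 RPKM, and HOXD was higher in MDA-MB-231, at 4.32 against 0.553. Hs-578T thus had 3 active clusters and MDA-MB-231 had an active part of HOXB and the 3 lowest-numbered HOXD genes.

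**Figure D1:**
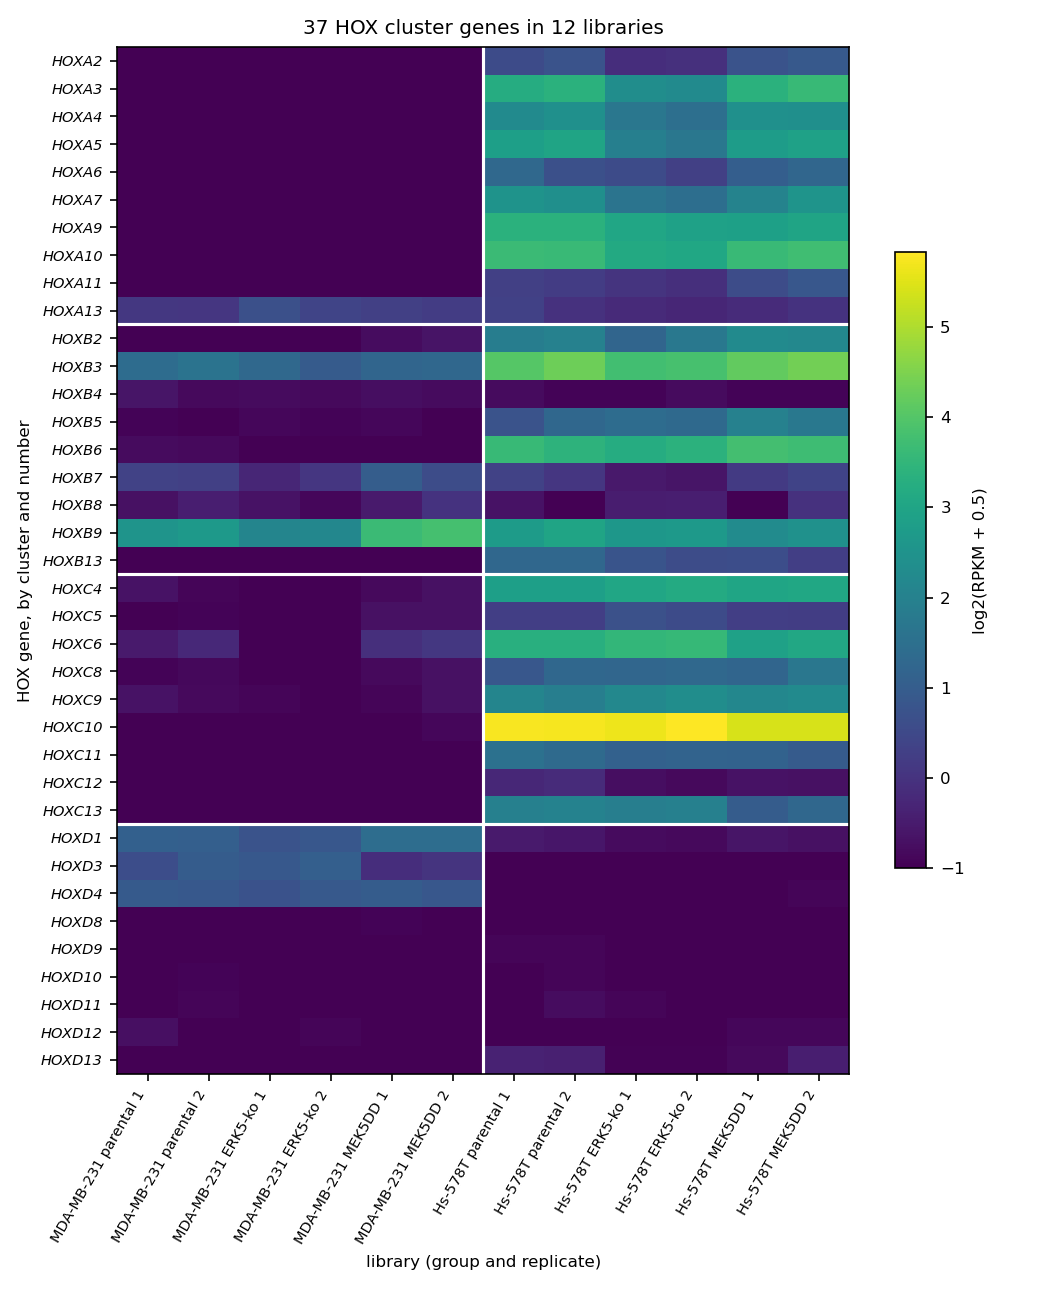
Level of each of 37 HOX genes (rows, by cluster and number) in each of the 12 libraries (columns, by group and replicate), as log2(RPKM + 0.5) on the colour scale, where -1 is an RPKM of 0. HOXA2 to HOXA11 are at the bottom of the scale in the 6 MDA-MB-231 libraries, HOXC10 is the brightest row in Hs-578T, and HOXD3 and HOXD4 are seen in MDA-MB-231 only.

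The HOXA cluster, on chromosome 7, was read in full in Hs-578T and nearly silent in MDA-MB-231. In MDA-MB-231, 10 of its 11 genes had 0 reads in all 6 libraries, whereas in Hs-578T every one of them had reads in all 6. HOXA10, an abdominal-type gene also used in the reproductive tract, had 417 and 374 reads in the parental Hs-578T libraries (11.998 and 11.87 RPKM), which makes it at least 158-fold higher than in parental MDA-MB-231 when 3 reads per library are set as the floor for a count of 0. The same bound was at least 135-fold for HOXA3, at least 86.5-fold for HOXA9 and at least 61.0-fold for HOXA5. HOXA13, the last gene of the cluster and a gene of the distal limb and urogenital tract, was the exception, with 0.576 and 0.549 RPKM in parental MDA-MB-231 and 0.742 and 0.475 in parental Hs-578T. The HOXA13 values of the lines overlapped.

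HOXC10, a posterior gene best known from lumbar and hindlimb tissue, was the highest HOX gene of the series. It had 53.2 and 52.5 RPKM in parental Hs-578T, 50.3 and 56.2 in the libraries labelled ERK5-ko and 42.2 and 42.2 in MEK5DD, against 1 read in the 6 MDA-MB-231 libraries together, so parental Hs-578T was at least 432-fold higher. HOXC4 to HOXC9 had traces in MDA-MB-231, with HOXC6 the highest at 0.204 and 0.362 RPKM in parental libraries. HOXC11 and HOXC13 had 0 reads in MDA-MB-231, and HOXC12 had 0 there and 0.355 and 0.391 RPKM in parental Hs-578T.

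HOXB was read in both lines but not with the same genes. HOXB9, a thoracic-type gene, was at 5.33 and 5.85 RPKM in parental MDA-MB-231 and 6.21 and 7.37 in parental Hs-578T, a log2 difference of 0.26 (SE 0.12) that did not pass the test (adjusted p = 0.0647 by limma). HOXB3, a hindbrain and cervical gene, was the second highest HOX gene of both lines, at 2.18 and 2.53 against 15.7 and 19.6 RPKM, or 7.50-fold higher in Hs-578T. HOXB6 was at 0.0728 and 0.0647 RPKM against 11.7 and 10.1, and HOXB5 had 1 read in parental MDA-MB-231 against 137 in parental Hs-578T, a ratio of 165 with a 95% counting interval of 29.1 to 6568. HOXB4 lies between HOXB3 and HOXB5, and unlike both it stayed near the floor in Hs-578T, at 0.0203 to 0.0770 RPKM over the 6 libraries. HOXB13, the most posterior gene of the cluster, was at 1.94 and 1.92 RPKM in parental Hs-578T and had 0 reads in MDA-MB-231.

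HOXD ran the other way. HOXD1, HOXD3 and HOXD4 were at 1.64, 1.02 and 1.41 RPKM in the first parental MDA-MB-231 library and at 1.59, 1.47 and 1.33 in the second. In parental Hs-578T HOXD3 and HOXD4 had 0 reads, so MDA-MB-231 was at least 13.9-fold and at least 14.5-fold higher, and HOXD1 was at 0.200 and 0.171 RPKM, which made MDA-MB-231 8.70-fold higher. HOXD8 to HOXD13 did not reach 0.5 RPKM in any library, and the highest of them was HOXD13 at 0.293 RPKM in parental Hs-578T. HOXD3 and HOXD4 overlap on the same strand, and only 286 of the 1464 exonic bases of HOXD4 are not shared with another gene of that strand, so reads of one could be counted for the other.

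Of the 38 members, 29 passed the filter for testing (2 or more libraries at 0.5 RPKM or above) and 9 did not, namely HOXB4, HOXB8, HOXC12 and HOXD8 to HOXD13. Between the parental lines 26 of the 29 were called at adjusted p under 0.05 and a fold of at least 1.5, with 23 higher in Hs-578T and 3 lower (HOXD1, HOXD3 and HOXD4), against 57.5% of all 13737 genes tested called either way and 23.5% called higher. A member that passed the filter through 1 line alone had to differ between the lines, so this count describes the members and does not support more than the per-library values above.

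In Hs-578T the libraries labelled ERK5-ko had less HOXA RNA than their parental controls. Summed over HOXA, the parental libraries were at 52.9 and 52.9 RPKM, the ERK5-ko libraries at 32.7 and 29.9 and the MEK5DD libraries at 48.1 and 55.2. HOXA5 was the member called lower, and HOXA2, HOXA3, HOXA4, HOXA6, HOXA7, HOXA9 and HOXA10 were also lower at adjusted p under 0.05 without reaching the fold threshold. No HOXA gene was higher.

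HOXA5, a regulator of lung and mammary development that lies at chr7:27141052-27143668, was at 6.71 and 7.40 RPKM in parental Hs-578T libraries, 3.38 and 2.79 in ERK5-ko libraries and 6.28 and 7.03 in MEK5DD libraries. Both ERK5-ko values lay below all others of the line. The log2 fold change against parental was -1.08 (SE 0.11, adjusted p = 3.06e-05 by limma). Without the second Hs-578T ERK5-ko library it was -0.96 (adjusted p = 0.000717 by limma), which no longer met the fold threshold of 0.5.

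HOXA3, a hindbrain and pharyngeal arch gene, was at 8.94 and 9.68 RPKM in parental libraries and 4.61 and 4.35 in ERK5-ko libraries (log2 fold change -0.98, SE 0.11, adjusted p = 5.4e-05 by limma). HOXA7, a thoracic-type gene, was at 5.18 and 4.81 against 2.57 and 2.26 RPKM (-0.92, SE 0.14, adjusted p = 0.000448 by limma). For both genes the ERK5-ko libraries were the 2 lowest of the line. HOXA4 and HOXA2 had log2 fold changes of -0.74 and -0.74, HOXA6 of -0.55, HOXA10 of -0.53 and HOXA9 of -0.38. HOXA11 and HOXA13, at the high-numbered end of the cluster, were at -0.28 and -0.36 and did not pass. The 5 most negative values of the cluster thus belonged to HOXA2, HOXA3, HOXA4, HOXA5 and HOXA7.

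**Figure D2:**
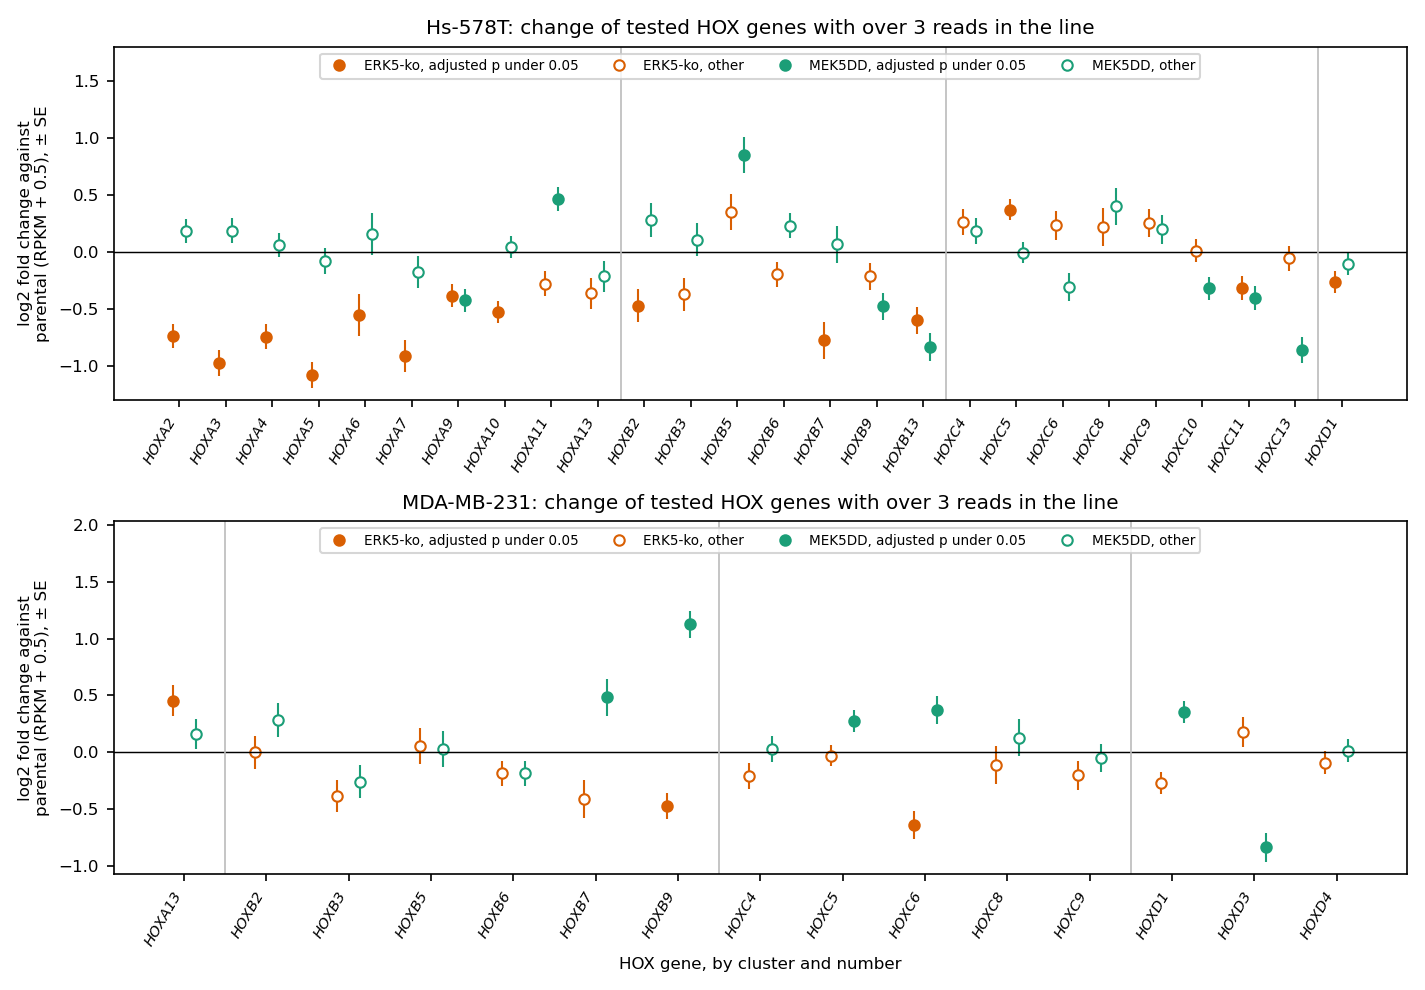
Log2 fold change against parental controls, with its standard error, for tested HOX genes that had over 3 reads in the line (upper panel Hs-578T, lower panel MDA-MB-231), orange for ERK5-ko and green for MEK5DD, filled where adjusted p was under 0.05. The filled orange points of HOXA2 to HOXA10 lie below 0 in Hs-578T, and HOXB9 under MEK5DD (1.124) is the highest point in MDA-MB-231.

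Outside HOXA 6 members passed adjusted p in the same comparison. HOXB7 was at 0.776 and 0.550 RPKM in parental libraries and 0.193 and 0.157 in ERK5-ko libraries, on 23 and 7 reads in all (log2 fold change -0.78, adjusted p = 0.0033 by limma). HOXB13 was at 1.94 and 1.92 against 1.20 and 1.01 (-0.60, adjusted p = 0.00248 by limma), and HOXB2 at -0.47, HOXC11 at -0.32 and HOXD1 at -0.27 also passed as lower. HOXD1 had only 9 and 7 reads in parental and 4 and 3 in ERK5-ko libraries of Hs-578T, and it passed the filter through MDA-MB-231 alone. HOXC5 was the member that was higher, at 0.704 and 0.696 RPKM against 1.1203 and 0.984 (0.37, adjusted p = 0.00894). Summed HOXC was at 81.3 and 80.7 RPKM in parental libraries and 81.1 and 89.0 in ERK5-ko libraries, so the groups overlapped.

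Across the 29 members tested, 1 was called in Hs-578T ERK5-ko against parental, where 12.6% of all genes tested were called. Without the fold threshold 13 were lower and 1 was higher, where 19.7% of all genes were lower and 19.7% higher, and the median log2 fold change was -0.28 for the members and 0.01 for all genes. By cluster, 8 of 11 HOXA genes, 3 of 7 HOXB genes and 1 of 8 HOXC genes tested in this line were lower, with medians of -0.55, -0.37 and 0.22. Some HOXA genes share exonic bases, so their values may not be independent. For HOXA4, 1206 of 1747 exonic bases are not shared with another gene of that strand. For HOXA7, 904 of 2411 are not shared on either strand, whereas for HOXA5 all 1707 are unshared. Of the 14 members past adjusted p, 8 stayed past it whichever single library was left out, and HOXA6, HOXA9, HOXB2, HOXC5, HOXC11 and HOXD1 did not.

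Under MEK5DD HOXB5 was called higher in Hs-578T. HOXB5 was at 1.18 and 1.94 RPKM in parental libraries and 3.49 and 2.84 in MEK5DD libraries, with ERK5-ko libraries in between at 2.15 and 2.004. Its log2 fold change was 0.85 (SE 0.16, adjusted p = 0.00318 by limma) and it was the 1 member called. Without the first parental library the value was 0.58 (adjusted p = 0.0173 by limma), under the fold threshold of 1.5. When only the 2 compared groups were fitted, the adjusted p was 0.177 by limma.

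The posterior genes HOXC13 and HOXB13 were lower under MEK5DD. HOXC13, which acts in hair and nail formation, was at 3.40 and 3.61 RPKM in parental libraries, 3.27 and 3.41 in ERK5-ko libraries and 1.49 and 1.93 in MEK5DD libraries (log2 fold change -0.86, SE 0.11, adjusted p = 0.000348 by limma). HOXB13, a regulator of prostate development, was at 1.94 and 1.92 RPKM in parental and 1.04 and 0.703 in MEK5DD libraries (-0.84, SE 0.12, adjusted p = 0.000732 by limma). The MEK5DD values of HOXC13 lay apart from the other 4, whereas those of HOXB13 overlapped the range of the ERK5-ko libraries. HOXC10 at -0.32, HOXC11 at -0.41, HOXA9 at -0.43 and HOXB9 at -0.48 also passed as lower and HOXA11 at 0.46 as higher. HOXC10 lost its adjusted p under both other scalings of the libraries.

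In Hs-578T MEK5DD against parental 1 of 29 members was called, where 4.38% of all genes tested were, and without the fold threshold 6 were lower and 2 higher, where 17.0% of all genes were lower and 6.44% higher. HOXA9, HOXB5, HOXB13 and HOXC13 stayed past adjusted p whichever single library was left out, and the other 4 did not.

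**Figure D3:**
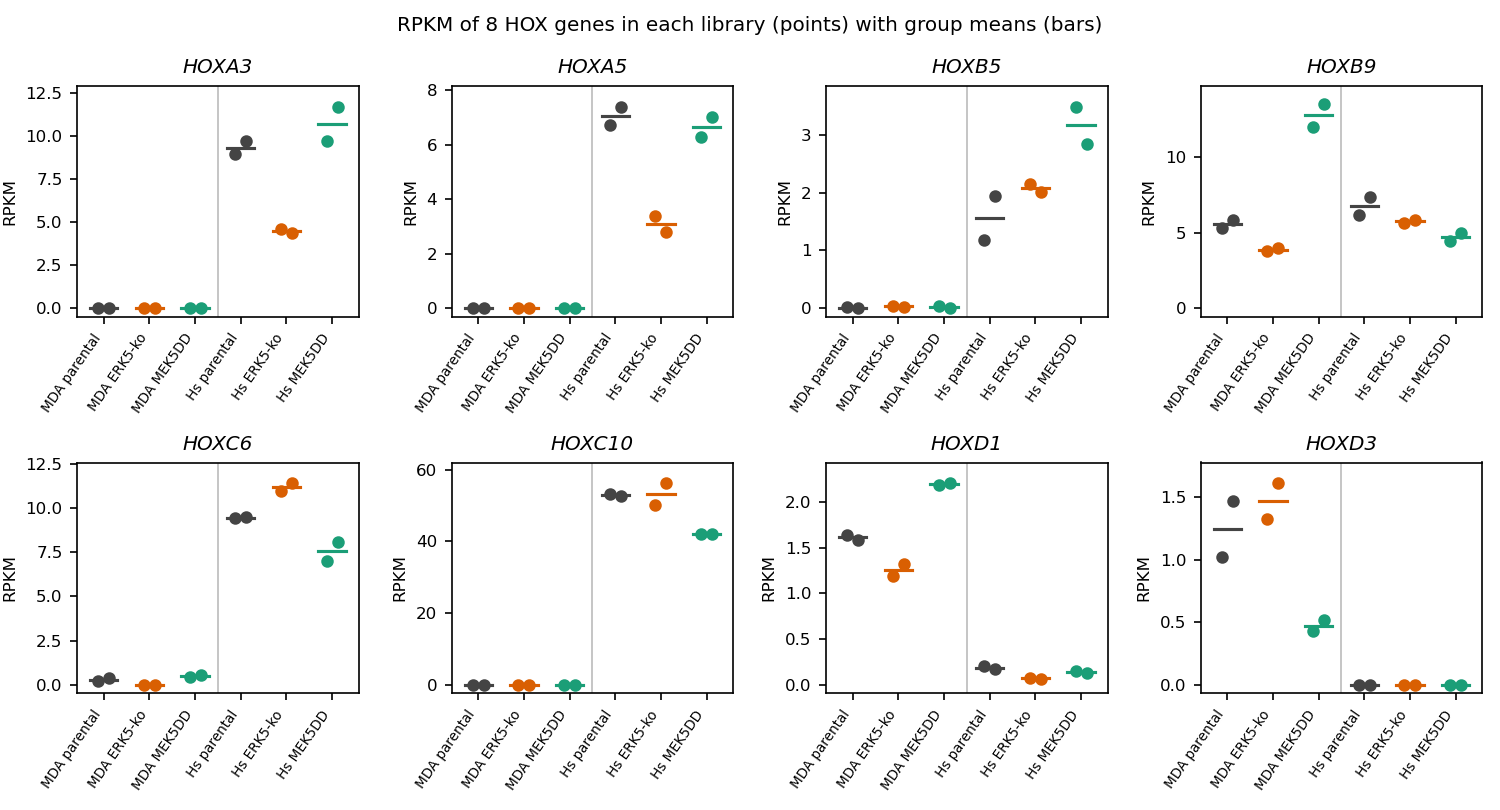
RPKM of 8 HOX genes in each library (points) with the mean of each group (bars), for MDA-MB-231 at the left and Hs-578T at the right of each panel. HOXA3 and HOXA5 are at 0 in MDA-MB-231 and lowest in the ERK5-ko libraries of Hs-578T, HOXB9 is highest in MDA-MB-231 MEK5DD, and HOXD3 is lowest there among the MDA-MB-231 groups.

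In MDA-MB-231 HOXB9 was the highest HOX gene per length and was called higher under MEK5DD. HOXB9 (chr17:48621159-48626356, minus strand) was at 5.33 and 5.85 RPKM in parental libraries, 3.81 and 3.96 in ERK5-ko libraries and 12.03 and 13.5 in MEK5DD libraries, on 340 and 419, 222 and 255, and 746 and 969 reads. The 3 groups did not overlap. Against parental the MEK5DD value was 1.124 higher on the log2 scale (SE 0.12, adjusted p = 1.55e-05 by limma), which made HOXB9 the 1 member called in that comparison, and the ERK5-ko value was -0.47 (adjusted p = 0.018 by limma), under the fold threshold. The ERK5-ko value lost its adjusted p without any 1 of the 4 libraries compared (0.0656 to 0.147 by limma).

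HOXD3, a gene of hindbrain and neck vertebrae, moved against HOXB9. It was at 1.02 and 1.47 RPKM in parental libraries, 1.32 and 1.61 in ERK5-ko libraries and 0.432 and 0.515 in MEK5DD libraries, which were the 2 lowest. The log2 fold change of MEK5DD against parental was -0.83 (SE 0.13, adjusted p = 0.000318 by limma), short of the fold threshold. Its neighbours did not follow, since HOXD1 was at 1.64 and 1.59 RPKM in parental and 2.19 and 2.21 in MEK5DD libraries (0.35, adjusted p = 0.0114) and HOXD4 had a log2 fold change of 0.02 and did not pass.

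HOXB7, a thoracic-type gene, was at 0.768 and 0.729 RPKM in parental, 0.337 and 0.558 in ERK5-ko and 1.53 and 1.004 in MEK5DD libraries, and HOXC6 and HOXC5 were also higher under MEK5DD at adjusted p under 0.05 (0.37 and 0.28). In MDA-MB-231 MEK5DD against parental 1 of 29 members was called, where 13.9% of all genes tested were, and without the fold threshold 5 were higher and 1 was lower, where 17.5% of all genes were higher and 23.8% lower. HOXB9 and HOXD3 stayed past adjusted p whichever single library was left out, and HOXB7, HOXC5, HOXC6 and HOXD1 did not.

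The traces of HOXC RNA in MDA-MB-231 were missing from the libraries labelled ERK5-ko. Summed over the 9 HOXC genes there were 16 and 21 reads in parental libraries, 1 and 0 in ERK5-ko libraries and 26 and 43 in MEK5DD libraries. HOXC6, which is expressed in the developing mammary gland, had 7 and 14 reads in parental, 0 and 0 in ERK5-ko and 15 and 22 in MEK5DD libraries. Parental libraries were at least 3.11-fold and MEK5DD libraries at least 5.60-fold higher than ERK5-ko libraries, with 3 reads per library as the floor. In the fit its change against parental was -0.64 on the log2(RPKM + 0.5) scale (adjusted p = 0.00527 by limma), a value that depends on the constant added, and without the second parental library it was -0.49 (adjusted p = 0.072 by limma). HOXC4, HOXC5 and HOXC6 overlap on the same strand, and 724 of the 1805 exonic bases of HOXC5 are not shared with another gene of that strand, so their reads may not be independent.

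In MDA-MB-231 ERK5-ko against parental 0 of 29 members were called by limma, where 3.87% of all genes tested were. At an unadjusted p under 0.05 there were 6, and limma's voom on recovered whole reads called 4. Without the fold threshold HOXC6 and HOXB9 were lower and HOXA13 was higher (0.455 on the log2 scale, adjusted p = 0.0385 by limma), where 10.4% of all genes were lower and 6.91% higher. HOXA13 was at 0.576 and 0.549 RPKM in parental and 1.10 and 0.829 in ERK5-ko libraries, and it passed only with the second ERK5-ko library left out or with all 4 libraries. None of the 3 stayed past adjusted p whichever single library was left out.

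Set directly against MEK5DD, more HOX genes were called in both lines than in either comparison with parental controls, at a fold threshold that differs (1.5 either way). In MDA-MB-231 5 of 29 members were called, where 33.3% of all genes tested were, with HOXB9 (log2 difference -1.60), HOXC6 (-1.01), HOXB7 (-0.89) and HOXD1 (-0.62) lower in ERK5-ko, where 15.8% of all genes were called lower, and HOXD3 (1.01) higher. In Hs-578T 10 members were called, where 25.4% of all genes were. The 9 lower in ERK5-ko were HOXA2, HOXA3, HOXA4, HOXA5, HOXA6, HOXA7, HOXA11, HOXB2 and HOXB7, with log2 differences of -1.16 (HOXA3) to -0.71 (HOXA6), where 10.1% of all genes were called lower, and HOXC13 was 0.80 higher. HOXB7 was the member called lower in both lines. By cluster, 7 of 11 HOXA genes were called lower in Hs-578T and 0 of 8 HOXC genes. The other genes around HOXA were also lower in this comparison. Their median was -0.43 over the 131 tested within 20 Mb, against 0.09 over all genes. At adjusted p under 0.05, 74 were lower and 12 higher, and the part of the region in the HOXA values was not tested. In MDA-MB-231 the other genes around HOXD were higher in ERK5-ko than in MEK5DD. Their median was 0.38 over the 131 tested within 20 Mb, against -0.02 over all genes. At adjusted p under 0.05, 74 were higher and 12 lower. HOXD3 shared that direction and HOXD1 did not, and the part of the region in their values was not tested.

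The difference between the lines in the response was tested on its own. For ERK5-ko 11 of 29 members passed, where 39.8% of all genes tested passed, and for MEK5DD 9 passed, where 39.6% did. Of these, 7 and 5 were members at or under the floor of 3 reads throughout 1 line, such as HOXA5 and HOXC13, which could change in 1 line only. HOXB5, which passed for MEK5DD, had at most 2 reads in any MDA-MB-231 library, so its difference restates its change in Hs-578T. Of the members read in both lines, HOXB9 differed most in its response to MEK5DD, with 12.03 and 13.5 against 5.33 and 5.85 RPKM in MDA-MB-231 and 4.44 and 5.01 against 6.21 and 7.37 in Hs-578T. The difference of the 2 log2 fold changes was 1.60 (SE 0.17, adjusted p = 2.49e-05 by limma).

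There were 42 rows other than HOX genes between the outermost HOX genes of the clusters, mostly noncoding or readthrough transcripts, of which 26 passed the filter when genes of all types were tested together. HOTAIRM1, an antisense RNA of the HOXA cluster, was at 20.5 and 20.4 RPKM in parental Hs-578T, 11.7 and 9.87 in ERK5-ko and 33.7 and 20.7 in MEK5DD libraries, and had 0 in MDA-MB-231. HOXA-AS2, antisense to HOXA3 and HOXA4, was at 9.17 and 8.41 in parental and 4.08 and 3.004 in ERK5-ko libraries (log2 fold change -1.21, adjusted p = 0.000293 by limma). In HOXA 9 of 14 such rows were lower in Hs-578T ERK5-ko at adjusted p under 0.05, where 17.9% of the genes of all types were lower, and 0 were higher. Several of these rows are parts of one transcript, so they are not separate evidence. HOXA-AS2 overlaps HOXA3 and HOXA4 on the opposite strand, so its reads and theirs may not have been told apart.

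HOXC-AS1, an antisense RNA of the HOXC cluster, fell in Hs-578T ERK5-ko, from 3.25 and 2.89 RPKM in parental to 0.457 and 0.693 (-1.74, adjusted p = 1.25e-05 by limma). HOTAIR, an antisense RNA of HOXC known for recruiting Polycomb complexes, was at 2.80 and 2.89 RPKM in parental, 1.18 and 1.40 in ERK5-ko and 2.02 and 1.17 in MEK5DD Hs-578T libraries and at 0 in MDA-MB-231. HAGLR, antisense to HOXD1, was the highest transcript of HOXD, at 18.6 and 20.2 RPKM in parental MDA-MB-231, 14.1 and 12.7 in ERK5-ko and 31.5 and 30.3 in MEK5DD libraries. In Hs-578T, where HOXD3 had no reads, HAGLR was still at 2.54 to 3.96 RPKM. In MDA-MB-231 it was higher under MEK5DD (0.66, adjusted p = 0.00157 by limma), as was HOXD1, and lower in ERK5-ko (-0.51, adjusted p = 0.0194 by limma). The libraries were made with a stranded kit, but whether the counting used the strand is not given in the sources used here, and only 828 of the 1975 exonic bases of HOXD1 are not shared with another gene on either strand, so HOXD1 and HAGLR reads may not have been told apart.

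Genes next to the clusters were examined for changes of their own. HIBADH, 325336 bases beyond HOXA13, was at 53.7 and 54.0 RPKM in parental Hs-578T and 26.5 and 24.2 in ERK5-ko libraries (-1.07, adjusted p = 2.84e-06 by limma), and SKAP2, 97754 bases from the other end of the cluster, was at 88.5 and 94.9 against 57.0 and 54.8 (-0.71, adjusted p = 0.000395). TAX1BP1, the next gene beyond HIBADH, had a log2 fold change of -0.06 and did not pass. Over the 47 other genes tested within 5 Mb of HOXA the median was -0.14, with 16 lower and 10 higher at adjusted p under 0.05, and over the 131 within 20 Mb it was -0.25, with 57 lower and 18 higher, against 0.01 over all genes. The HOXA median of -0.55 lay below both, and the part of the surrounding region in the HOXA values was not tested.

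Around HOXD the genes of MDA-MB-231 MEK5DD libraries were lower as a region. MTX2, 78488 bases beyond HOXD1, was at 54.4 and 49.0 RPKM in parental and 30.7 and 30.6 in MEK5DD libraries (-0.74, adjusted p = 0.000142 by limma). Within 5 Mb of HOXD 26 of 40 other genes were lower and 2 higher, with a median of -0.42, and within 20 Mb 74 of 131 were lower and 6 higher, with a median of -0.40, against -0.01 over all genes. HOXD3 at -0.83 lay in a region that was lower, HOXD1 at 0.35 and HOXD4 at 0.02 did not share its direction, and the part of the region in these values was not tested. Around HOXB 118 of 400 other genes tested within 20 Mb were lower and 15 higher in Hs-578T MEK5DD at adjusted p under 0.05. Their median was -0.24, against -0.08 over all genes. In Hs-578T ERK5-ko 124 of them were lower and 34 higher, with a median of -0.13 against 0.01. The part of that region in the HOXB values was not tested. The distances were chosen after the values had been seen.

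**Figure D4:**
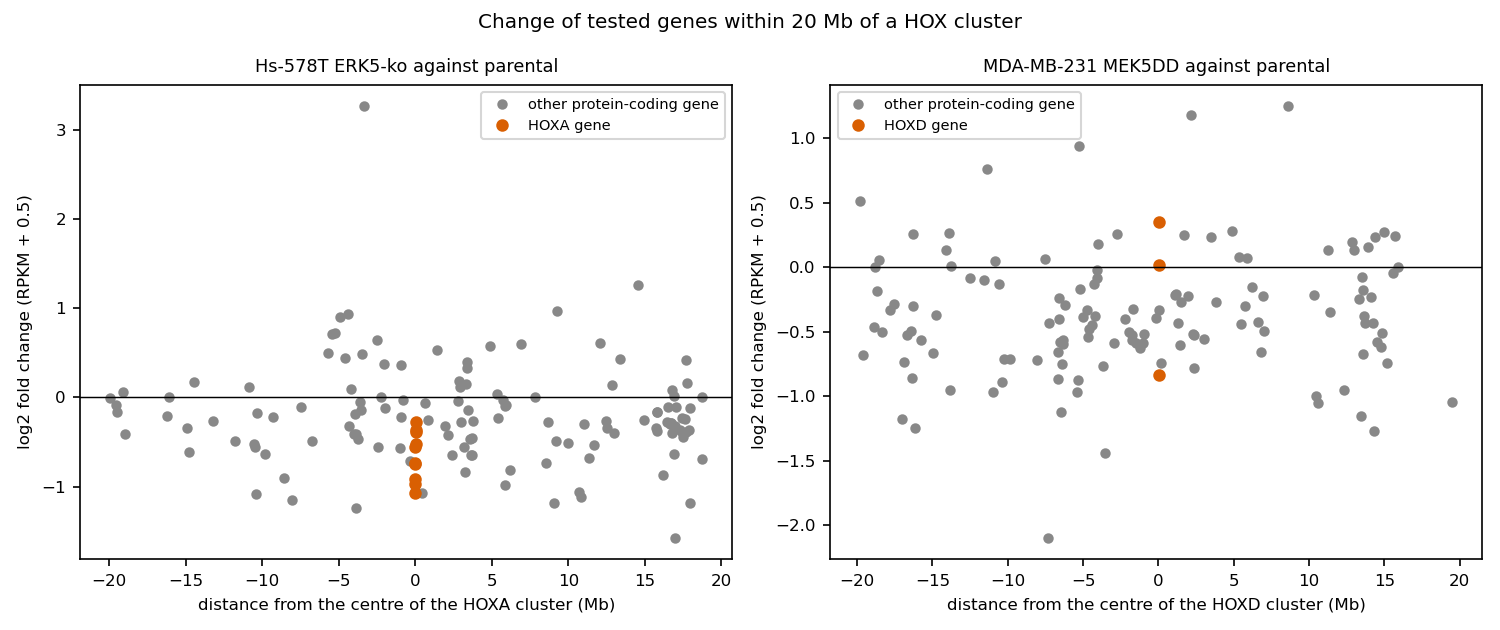
Log2 fold change of tested protein-coding genes within 20 Mb against its distance from the centre of the cluster, for HOXA in Hs-578T ERK5-ko (left) and HOXD in MDA-MB-231 MEK5DD (right), orange for HOX genes and grey for other genes. The HOXA genes drawn lie below 0 among neighbours on both sides of it with a median of -0.25, and most grey points around HOXD lie below 0 with a median of -0.40.

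The genes that work with or on HOX genes were counted from lists. The TALE homeodomain proteins PBX, MEIS and PKNOX bind DNA together with HOX proteins. All 9 were tested, and against parental controls 3 were called in MDA-MB-231 MEK5DD (2 higher and 1 lower), where 13.9% of all genes were. Between ERK5-ko and MEK5DD 4 were called in MDA-MB-231 (1 higher and 3 lower in ERK5-ko) and 1 was called in Hs-578T (higher), where 33.3% and 25.4% of all genes were. PBX3 rose from 16.2 and 17.4 RPKM in parental to 37.4 and 37.7 in MEK5DD libraries (1.14, adjusted p = 2.57e-06 by limma), and MEIS1 rose from 0.101 and 0.112 to 1.27 and 1.58 (1.66, adjusted p = 5.94e-07 by limma). None of the 9 was called in the other 3 comparisons with parental controls, where at adjusted p under 0.05 1 was lower in MDA-MB-231 ERK5-ko, 3 were higher in Hs-578T ERK5-ko and 1 was higher in Hs-578T MEK5DD.

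Of the 25 Polycomb genes, which encode the complexes that silence HOX clusters, 1 was called against parental controls in Hs-578T ERK5-ko and 1 in MDA-MB-231 MEK5DD, where 12.6% and 13.9% of all genes were. Between ERK5-ko and MEK5DD 5 were called in MDA-MB-231 (2 higher, 3 lower), and for Hs-578T it was 4 (3 higher, 1 lower), where 33.3% and 25.4% of all genes were called. EED, a core subunit of Polycomb repressive complex 2, was at 6.45 and 6.02 RPKM in parental Hs-578T and 9.11 and 10.3 in ERK5-ko libraries (0.60, adjusted p = 0.00813 by limma), and PHC1 was higher in MDA-MB-231 MEK5DD (0.70, adjusted p = 0.0037). The median of the list was 0.10 in Hs-578T ERK5-ko and -0.23 in Hs-578T MEK5DD, against 0.01 and -0.08 over all genes. Of the 19 Trithorax and other activating genes, against parental controls DOT1L and AFF1 were called higher in Hs-578T ERK5-ko, where 12.6% of all genes were called, and MLLT3 was called higher and KDM6A lower in MDA-MB-231 MEK5DD, where 13.9% were. Between ERK5-ko and MEK5DD 2 were called in MDA-MB-231 (1 higher, 1 lower), and for Hs-578T it was 4 (all higher), where 33.3% and 25.4% of all genes were called. DOT1L, the methyltransferase that elongation complexes bring to HOXA genes in leukaemia, was at 10.8 and 14.8 RPKM in parental Hs-578T and 21.8 and 20.6 in ERK5-ko libraries (0.72, adjusted p = 0.00303 by limma). KDM6A, a demethylase that removes the Polycomb mark, was at 14.5 and 14.01 in parental MDA-MB-231 and 5.08 and 5.01 in MEK5DD libraries (-1.41, adjusted p = 9.56e-06 by limma).

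Retinoic acid genes bind, carry or convert retinoids. Of 18 genes 17 were in the table and 13 were tested. Against parental controls 4 were called higher in MDA-MB-231 ERK5-ko, where 3.87% of all genes were called, 2 lower in Hs-578T ERK5-ko, where 12.6% were, and 3 higher and 3 lower in MDA-MB-231 MEK5DD, where 13.9% were. In Hs-578T MEK5DD limma called 0, where 4.38% of all genes were called, and at adjusted p under 0.05 3 were lower. Between ERK5-ko and MEK5DD 7 were called in MDA-MB-231 (5 higher, 2 lower), and for Hs-578T it was 3 (all lower), where 33.3% and 25.4% of all genes were called. DHRS3, which converts retinal back to retinol, was at 2.28 and 2.21 RPKM in parental MDA-MB-231, 5.95 and 6.20 in ERK5-ko and 0.324 and 0.492 in MEK5DD libraries (1.26, adjusted p = 6.37e-05, and -1.60, adjusted p = 1.27e-06, by limma). RARG, a retinoic acid receptor, was at 19.5 and 20.8 in parental and 6.15 and 7.01 in MEK5DD MDA-MB-231 libraries (-1.54, adjusted p = 2.78e-07 by limma). Of the ParaHox and cluster-edge homeobox genes 3 of 8 were in the table and 0 passed the filter.

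Among the 9 members below the filter the posterior genes of Hs-578T had the clearest values. HOXC12 had 27 and 27 reads in parental, 8 and 5 in ERK5-ko and 9 and 8 in MEK5DD Hs-578T libraries, and HOXD13 had 15 and 12, 1 and 1, and 3 and 11. Both genes were highest in the parental libraries, although the lower parental value of HOXD13 (0.259 RPKM) was close to the higher MEK5DD value (0.240 RPKM). HOXB8 ranged from 0 to 0.494 RPKM and HOXB4 from 0.0203 to 0.151, and HOXD8 to HOXD12 had at most 3 reads in any library, which at this depth cannot show a difference. Intervals and floors on reads cover counting error only.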

How the data were processed

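Libraries were made from RNA of 6 groups (2 per group) with a stranded mRNA kit, and the submitters' processing notes name bcl2fastq, Trimmomatic 0.32, TopHat2 2.1.1, R 3.3.1, DESeq2 1.12.4 and GRCh38. The authors deposited 1 table of RPKM per gene and library, and the annotation and the counting of shared or antisense reads are not given in the sources used here. Coordinates of genes are those of the table. Every sample was matched to a column by name.

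RPKM were tested as log2(RPKM + 0.5) with limma 3.58.1 in R 4.3.3 (6 group means over 12 libraries, empirical Bayes with trend, 6 residual degrees of freedom), over 13737 protein-coding genes that reached 0.5 RPKM in 2 or more libraries, with Benjamini-Hochberg adjustment within each of 9 contrasts. Against parental controls a gene was called at adjusted p under 0.05 and a fold above 1.5 or below 0.5. Between ERK5-ko and MEK5DD, and between parental lines, the fold was at least 1.5 either way, and differences of responses had no fold threshold. Fold changes on this scale understate the change of low genes. An exact permutation test of 2 against 2 libraries cannot go below p = 0.333. The fit was tested on simulated data.

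Whole reads were recovered for 32152 of 32152 genes (tolerance 0.0001 reads), with the length of each gene chosen so that its reads were whole. With totals 1% off and the lengths kept, 0 of 500 genes had whole reads. The arithmetic nearly fixes that outcome, so it is no check of the recovery. Replicate libraries differed beyond sampling noise (chi-square per degree of freedom 2.81 to 41.9), so none was a duplicate. The spread was largest in Hs-578T parental (30.7) and Hs-578T MEK5DD (41.9), against 2.81 to 8.78 in the other groups, and the fit shares one spread over all groups. Same-numbered libraries deviated together within each line (correlations 0.107 to 0.541 over 6 pairs of groups), so replicate number was also fitted as a block. Of the 38 members 23 overlap another listed gene on the same strand, 23 on the opposite strand and 7 none.

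The HOX genes, companion lists and tests were chosen with earlier results of these data known. Per-library values are given for members called against parental controls, in the line where they were called. They are also given for the 3 highest members of each line (HOXB9, HOXB3 and HOXD1 in MDA-MB-231, HOXC10, HOXB3 and HOXB6 in Hs-578T). Of these, HOXB3 and HOXB6 are given for parental libraries only, and HOXD1 without the MDA-MB-231 ERK5-ko libraries. From each list at most 3 called genes are given with values. Other members, the noncoding rows and the flanking genes described were chosen after their values were seen. Alternatives were other constants, filters, scalings, gene types, groups in the fit, call rules, the block, leaving out each library, and limma's voom on recovered reads, which was chosen after seeing the data. Values of 1 member and of some listed genes are not reported here.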

Additional observations from a re-analysis of the deposited data

Results flagged for a closer look

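Of the HOX genes with more than 3 reads summed over each line, 4 passed for ERK5-ko and 4 for MEK5DD as differing in response between the 2 lines, by a limma test of the difference itself (effect in MDA-MB-231 minus effect in Hs-578T, on the log2(RPKM + 0.5) scale). For ERK5-ko the difference was -0.87 for HOXC6 (adjusted p = 0.00274), which had 0 reads in the ERK5-ko libraries of MDA-MB-231, 0.82 for HOXA13 (adjusted p = 0.00579), -0.40 for HOXC5 (adjusted p = 0.0331) and -0.47 for HOXC4 (adjusted p = 0.039). HOXC4 and HOXC5 had at most 4 reads in any parental or ERK5-ko library of MDA-MB-231, and each lost its adjusted p when most of the 8 libraries were left out in turn (6 of 8 for HOXC4, 7 of 8 for HOXC5).

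For MEK5DD the difference was 1.60 for HOXB9 (adjusted p = 2.49e-05 by limma) and 0.68 for HOXC6 (adjusted p = 0.0106 by limma). It was 0.46 for HOXD1 (adjusted p = 0.019 by limma) and -0.82 for HOXB5 (adjusted p = 0.0131 by limma). HOXD1 had at most 9 reads in any Hs-578T library. HOXB9 kept its adjusted p whichever of the 8 libraries was left out. HOXB5 lost it without the second MDA-MB-231 MEK5DD library (-0.77, adjusted p = 0.0509 by limma), and since HOXB5 had at most 2 reads in any MDA-MB-231 library, its value restates the change in Hs-578T. HOXC6 lost it without the first parental or the second MEK5DD library of MDA-MB-231 (0.53, adjusted p = 0.0573, and 0.59, adjusted p = 0.0513), and HOXD1 lost it without 3 of the 8 libraries.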

How the results depend on the processing

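Over 63 values of single HOX genes, each past adjusted p in its comparison, 907 values under alternatives gave 766 that stayed past it, 141 that did not and 0 with the opposite direction, and 28 of the 63 stayed past it under every alternative run. With the replicate block 62 of the 63 stayed, the exception being HOXD1 in Hs-578T ERK5-ko (-0.27, adjusted p = 0.0565), and the block changed no other call. Fitting only the groups compared ended 21 of 63, the most of any single alternative fit.

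Counts of HOX genes called moved by over 1.5 times in these cases. In MDA-MB-231 ERK5-ko, 0 called became 1 with a constant of 0.1, 4 with voom on recovered reads, 3 with no fold threshold and 1 with a fold of 1.5 either way. In Hs-578T ERK5-ko, 1 became 5 with a constant of 0.1, 0 with a constant of 1, 2 with median-ratio scaling, 3 with quantile normalization, 6 with voom, 14 with no fold threshold and 7 with a fold of 1.5 either way. In MDA-MB-231 MEK5DD, 1 became 5, 2, 5, 6 and 2 with a constant of 0.1, quantile normalization, voom, no fold threshold and a fold of 1.5 either way. In Hs-578T MEK5DD, 1 became 4, 2, 4, 8 and 3 with the same 5 settings and 0 when only the groups compared were fitted. Between ERK5-ko and MEK5DD, 5 became 9 in MDA-MB-231 with a constant of 0.1 and with voom, and 10 became 17 in Hs-578T with no fold threshold. With voom 5 members passed the difference of the ERK5-ko responses (11 in the main result) and 5 that of the MEK5DD responses (9). Dropping the fold threshold or making it symmetric loosens the rule by construction, and the cause was not tested for the others. With a constant of 0.1, 13 of the 63 values lost their adjusted p, and with a constant of 1, 4 did. Median-ratio scaling moved the median of all genes between the parental lines by 0.22 on the log2 scale and quantile normalization by 0.11, under both of which 26 members were called, as in the main result.

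Leaving out 1 library gave 0 to 1 called in MDA-MB-231 ERK5-ko, 0 to 2 in Hs-578T ERK5-ko, 1 to 2 in MDA-MB-231 MEK5DD, 0 to 4 in Hs-578T MEK5DD, 4 to 5 and 9 to 11 between ERK5-ko and MEK5DD, 26 to 26 between parental lines, and 8 to 11 and 4 to 10 for the differences of responses. The libraries that moved a count were the second MDA-MB-231 ERK5-ko (1 called), the second Hs-578T ERK5-ko (0), each of the other 3 of that comparison (2), the first MDA-MB-231 parental and the second MDA-MB-231 MEK5DD (2 each), the first Hs-578T parental (0 in MEK5DD), the first Hs-578T MEK5DD (4), the second Hs-578T parental and the second Hs-578T MEK5DD (2 each), and the second MDA-MB-231 MEK5DD for the difference of MEK5DD responses (4). For members with 3 or fewer reads in every library compared, a difference was not detectable at this depth.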
